A study of Homo sapiens with 8 samples.

Results

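The chaperonin CCT, also called TRiC, is the folding machine of the eukaryotic cytosol, and the genes described here are those of its 8 subunits: TCP1, CCT2, CCT3, CCT4, CCT5, CCT6A, CCT7 and CCT8. They were taken by symbol from a table of 13036 genes, and all 8 were listed and passed the filter on low values. Their Entrez identifiers in the table, in the same order, are 6950, 10576, 7203, 10575, 22948, 908, 10574 and 10694, and the genes lie on chromosomes 6, 12, 1, 2, 5, 7, 2 and 21. All groups are of LN229-TAZ(4SA), a line of human glioblastoma cells whose name refers to TAZ, the co-activator encoded by WWTR1. RNA was sequenced from 8 libraries, 2 in each of 4 groups: cells given AF at 1 µM without glucose for 1 h, cells in regular culture for 1 h, cells given AF at 1 µM without glucose for 7 h, and cells in regular culture for 7 h. The labels give AF only as an abbreviation. AF and the removal of glucose came together in every treated library, so the effect of either alone cannot be told apart. Regular culture contained no AF. The labels do not say whether the line is a single clone, nor whether the libraries of a group came from separate cultures, so a p-value here speaks only of library-to-library spread, possibly technical.

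CCT is built of 2 stacked rings, and each ring holds every subunit once. The subunits are related proteins, each encoded by its own gene. An unfolded protein enters the cavity of a ring, a lid closes over it when ATP is used, and the protein folds inside. Actin and the tubulins are the best known clients, and many proteins with a beta-propeller fold depend on it too. Prefoldin delivers new actin and tubulin chains to the chaperonin, and phosducin-like proteins act as its co-factors. A complete ring needs the 8 subunits in equal number, and structural work has placed them round the ring in the order CCT4, TCP1, CCT3, CCT6A, CCT8, CCT7, CCT5 and CCT2, with CCT2 next to CCT4 again.

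The start regions of the genes are shown first, because the subunits moved unequally and the description of their starts is used again with the neighbouring genes. Promoter windows of 250 bases before to 50 bases after a start, from RefSeq (GRCh38.p14), were matched for 7 of the 8 subunits; CCT6A had no entry. TCP1 and CCT4 are shown as the subunits with the largest changes at 7 h, and CCT7 as a subunit with a small change, so the windows shown were chosen by outcome. Capitals mark the core of a heat shock element, read as GAANNTTC or TTCNNGAA.
TCP1 window, minus strand, chr6:159789553-159789852: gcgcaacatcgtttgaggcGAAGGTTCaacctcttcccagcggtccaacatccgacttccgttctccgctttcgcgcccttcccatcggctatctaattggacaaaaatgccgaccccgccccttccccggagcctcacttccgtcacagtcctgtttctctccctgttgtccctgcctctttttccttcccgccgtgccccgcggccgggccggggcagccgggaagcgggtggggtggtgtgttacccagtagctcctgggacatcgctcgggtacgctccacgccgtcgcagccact
CCT4 window, minus strand, chr2:61888607-61888906: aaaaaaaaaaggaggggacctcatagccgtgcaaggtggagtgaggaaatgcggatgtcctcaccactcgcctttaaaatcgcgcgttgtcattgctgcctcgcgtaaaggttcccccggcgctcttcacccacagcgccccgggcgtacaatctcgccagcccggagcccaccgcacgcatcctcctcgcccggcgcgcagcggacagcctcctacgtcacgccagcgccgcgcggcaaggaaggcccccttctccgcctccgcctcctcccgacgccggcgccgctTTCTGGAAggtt
CCT7 window, plus strand, chr2:73234058-73234357: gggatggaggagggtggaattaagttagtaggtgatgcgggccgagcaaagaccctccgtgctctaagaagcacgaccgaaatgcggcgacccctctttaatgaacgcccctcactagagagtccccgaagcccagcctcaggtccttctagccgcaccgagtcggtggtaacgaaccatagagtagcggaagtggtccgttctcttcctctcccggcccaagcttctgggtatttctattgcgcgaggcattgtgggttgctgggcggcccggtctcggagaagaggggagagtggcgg
The core was found in windows of 3 of the 7 subunits, TCP1, CCT4 and CCT2 (3 of their 9 windows, as some genes have several), and in 13.5% of the 35116 windows of all genes. The only CCT5 window (chr5:10250287-10250586) lay downstream of the GENCODE start of CCT5-201 (10249921), so the bases before that start were not searched. In TCP1 it was GAAGGTTC (chr6:159789826-159789833), inside an exon of the neighbouring gene MRPL18. Its first base was at -231 from the RefSeq start (159789602), while the GENCODE start used with the neighbours below is 159789749. In CCT4 it was TTCTGGAA at position 39 after the start (chr2:61888611-61888618), inside the 5′ untranslated exon. In CCT2 it was GAAATTTC at -89 from a second annotated start (chr12:69585800-69585807). CCT3, whose window held no core, changed more at 7 h (log2 fold change 1.16) than CCT2 (1.03), and less than TCP1 and CCT4. Of the other motifs searched on both strands, CCAAT was in 34.6% of all windows, the ETS core CCGGAAG in 10.3% and the NRF2 core TGACNNNGC in 13.3%. CCAAT was matched in windows of TCP1, CCT2, CCT3 and CCT8, the ETS core in CCT2 and the NRF2 core in CCT4.

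The CCT4 core was part of a longer run. In the transcript CCT4-204 (GENCODE v29), 4 alternating GAA and TTC units, each 2 bases from the next, stood at positions 54 to 71 of the first exon, and the capitals mark these 18 bases.
CCT4-204 first exon, minus strand, chr2:61888596-61888623: ccgctTTCTGGAAGGTTCGTGAAggcag
A run of at least 3 such units lay in the first 100 bases of 102 of 83092 protein-coding transcripts (0.123%) and of 1 of the 42 transcripts of the 8 subunits, this one. The cytosolic heat shock chaperone genes, taken for comparison, had the core in promoter windows of 6 of 8 genes and 3 or more units in those of 4 of 8. In promoter windows 3 or more units were found for 0 of the 7 subunits and in 0.490% of all windows. The CCT4 window printed above ends at chr2:61888607, inside the run of 4 units, so 3 whole units could not be found in it. In the proteasome core 1 of 9 genes with a window held the core, and in prefoldin 0 of 4. Such matches describe the letters of these windows and were not tested for binding.

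The libraries held 27731776 to 45811965 reads in listed genes, and the 2 libraries of a group differed by more than counting error (chi-square per degree of freedom 2.79 to 3.62). VIM, CD44, NES and WWTR1, markers taken for the line, were listed at 243 CPM or more in every library (CPM is the level per library size on the deposited scaling), while the astrocyte marker GFAP stood between 0.438 and 1.34 CPM. Of the other glial and neuronal markers, S100B lay between 93.6 and 276 CPM, SOX2 between 18.1 and 129.98, OLIG2 between 6.60 and 16.8, SYT1 between 31.0 and 86.9 and RBFOX3 between 0.420 and 28.7. The immune marker CD68 lay between 11.2 and 22.1 CPM and the endothelial marker VWF between 0.618 and 1.49995, while PTPRC, PECAM1, EPCAM, KRT19, HBB and HBA1 were not among the listed genes. The part of other cell types in the results was not tested. WWTR1 encodes the TAZ in the name of the line, and whether its reads came from an added copy was not tested. Differences are log2 fold changes, treated minus regular, from limma fitted across 13028 genes on the deposited log2 values, and a gene was called at an adjusted p under 0.05. Each single-gene fold change of a subunit had a standard error (SE) near 0.03. In bulk RNA, a change in the number of cells of a kind cannot be told apart from a change in RNA per cell.

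At 7 h all 8 subunit mRNAs were higher in treated cells than in regular culture, by between 1.34-fold (CCT5) and 4.14-fold (CCT4). The summed level of the 8 genes was 7305 and 7252 CPM in treated cells at 7 h, against 3545 and 3552 CPM in regular culture. That sum was 0.612% and 0.614% of the reads of listed genes in treated cells, against 0.371% and 0.374% in regular culture. Across all genes tested at 7 h, 40.5% were called higher and 41.1% lower, and the median of all genes was -0.01 on the log2 scale, so a call by itself was common. At least 2-fold higher and called were 4 of the 8 subunits, CCT4, TCP1, CCT3 and CCT2, against 10.6% of all genes.

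CCT4, the delta subunit, stood at 1325 and 1329 CPM in treated cells at 7 h, against 319 and 322 CPM in regular culture (log2 fold change 2.05, SE 0.03; limma adjusted p = 7.34e-22). TCP1, the alpha subunit after which the family is named, stood at 721 and 722 CPM in treated cells, against 208 and 208 CPM in regular culture (1.79, SE 0.03; limma adjusted p = 8.74e-21). These 2 genes sit next to each other in the ring, and in both the libraries of a group lay within a few CPM of each other and far from the other group. CCT3, the gamma subunit, stood at 1341 and 1307 CPM in treated cells, against 591 and 592 CPM in regular culture (1.16). CCT2, the beta subunit, stood at 854 and 838 CPM in treated cells, against 412 and 414 CPM in regular culture (1.03). Both of these lay close to the mean of the 8 subunits.

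The remaining 4 subunits changed less than 2-fold. CCT6A, the zeta subunit, stood at 1084 and 1084 CPM in treated cells at 7 h, against 648 and 652 CPM in regular culture (0.74). CCT8, the theta subunit, stood at 547 and 528 CPM in treated cells, against 328 and 327 CPM in regular culture (0.71). Their changes differed by less than 1 SE, and no overlap between treated and regular libraries occurred. CCT7, the eta subunit, stood at 610.2 and 615 CPM in treated cells, against 421 and 416 CPM in regular culture (0.55). CCT5, the epsilon subunit, stood at 824 and 831 CPM in treated cells, against 618 and 621 CPM in regular culture (0.42, SE 0.03; limma adjusted p = 6.06e-11). CCT5 was the smallest change of the 8, and it depended on the scaling. Quantile normalization gave 0.04 (limma adjusted p = 0.15), and scaling to total reads gave 0.10 (limma adjusted p = 0.00244). The median of all genes at 7 h was -0.32 after scaling to total reads and -0.02 after quantile normalization, against -0.01 with the deposited scaling. Under all 3 scalings the order with CCT4 and TCP1 at the top, CCT3 and CCT2 next and CCT5 last was found.

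**Figure D1:**
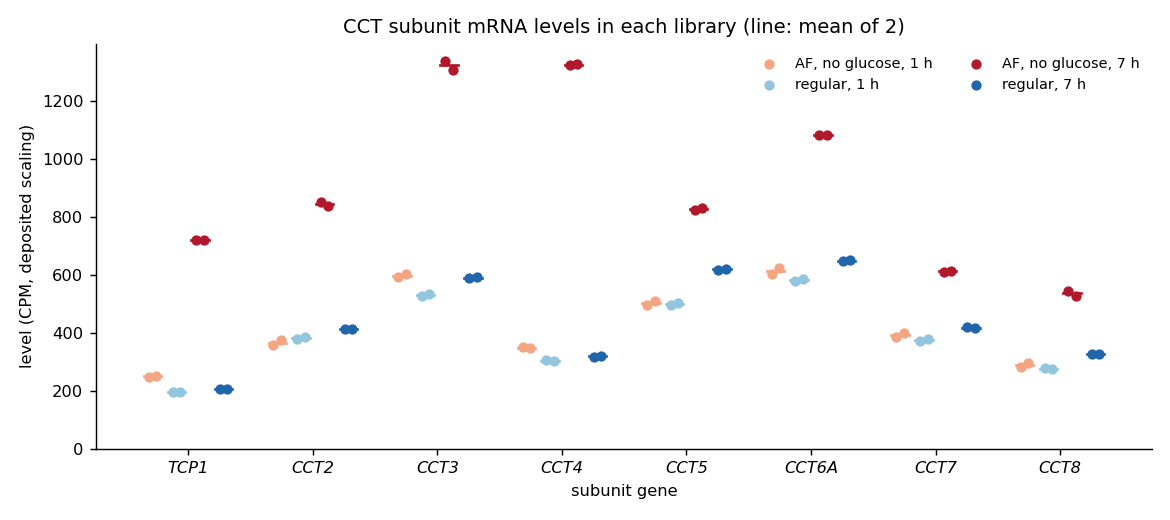
Level of each CCT subunit mRNA (CPM, linear axis from 0) in each of the 8 libraries; points are libraries, short lines group means. CCT4 reached 1325 and 1329 CPM in treated cells at 7 h, against 319 and 322 CPM in regular culture, while CCT5 reached 824 and 831 CPM against 618 and 621 CPM.

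The 7 h changes followed the ring. Starting at CCT4 and going round through TCP1, CCT3, CCT6A, CCT8, CCT7 and CCT5, the log2 fold changes were 2.05, 1.79, 1.16, 0.74, 0.71, 0.55 and 0.42, lower at each step, and CCT2, which closes the ring between CCT5 and CCT4, stood at 1.03. The step between CCT6A and CCT8 was smaller than the SE. At 1 h, in other libraries, the highest value was that of TCP1, and from there round through CCT3, CCT6A, CCT8, CCT7, CCT5 and CCT2 the values again became lower at each step, with CCT4 second. The steps among CCT6A, CCT8 and CCT7 at 1 h were within 1 SE. Under scaling to total reads the order was the same at both times, and under quantile normalization CCT8 stood above CCT6A at both times (0.45 and 0.31 at 7 h), and at 1 h CCT7 (0.16) did too (CCT6A 0.13). The ring order comes from outside these data, the comparison was made after the values were seen, and it has no test.

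**Figure D2:**
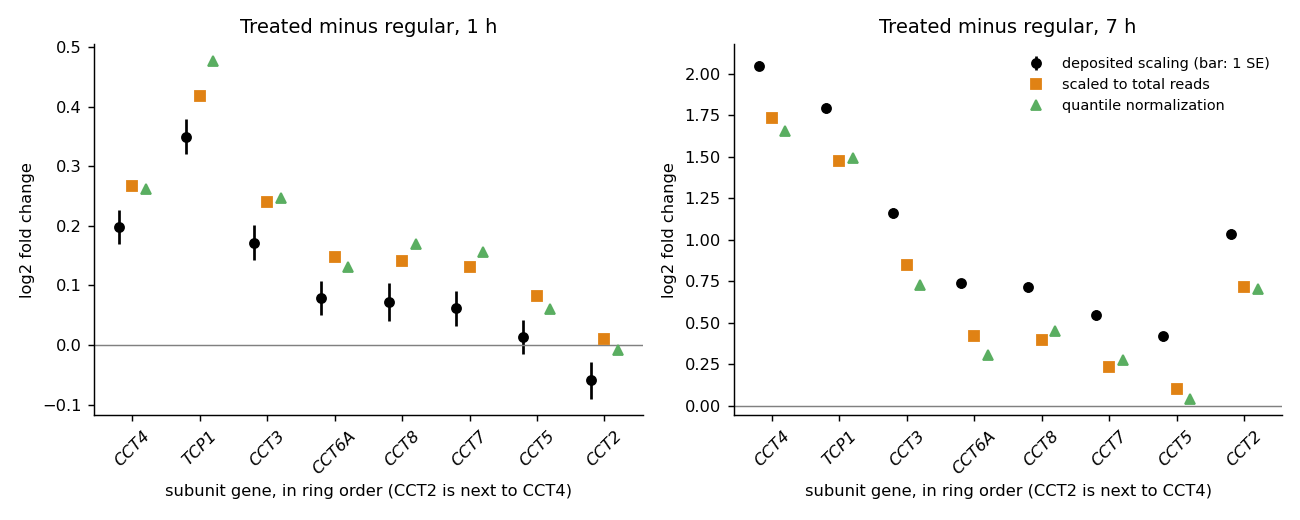
Log2 fold change, treated minus regular, of each CCT subunit at 1 h (left) and 7 h (right), with subunits in ring order on the horizontal axis; circles are the deposited scaling with 1 SE, squares scaling to total reads, triangles quantile normalization. At 7 h the values run from 2.05 at CCT4 to 0.42 at CCT5, and CCT2 is at 1.03; the vertical axes of the panels differ.

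How far the subunits departed from each other was measured against their own mean, which removes any scaling shared by all genes of a library; this fit was added after the data were seen. At 7 h, CCT4 was 0.99 and TCP1 0.74 log2 units above the mean change of the 8, and CCT3 0.11 above it. CCT2 did not differ from that mean (-0.02, limma adjusted p = 0.407). CCT6A was at -0.32, CCT8 at -0.34, CCT7 at -0.51 and CCT5 at -0.64 relative to it. So 3 subunits were called above and 4 below the common change, and the call of CCT3 did not hold under quantile normalization (0.02). Departures from the mean of the same 8 genes sum to 0, so departures on both sides were fixed once the subunits differed. Of all genes set against that mean, 7.29% were called higher and 86.1% lower. These shares are no background for departures within the complex, because that mean itself rose by 1.06 while the median of all genes was -0.01. The range from the highest to the lowest of the 8 changes was 1.63 log2 units and their SD was 0.59.

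The make-up of the mRNA pool of the complex differed between the groups. CCT4 was 18.1% and 18.3% of the summed CPM in treated cells at 7 h, against 8.98% and 9.07% in regular culture. TCP1 was 9.86% and 9.95% in treated cells, against 5.87% and 5.85% in regular culture. CCT5 was 11.3% and 11.5% in treated cells, against 17.4% and 17.5% in regular culture. The CPM of CCT4 over that of CCT5, not set per length, was 1.61 and 1.60 in treated cells, against 0.515 and 0.519 in regular culture. CCT2 kept its mean share (11.6% in treated cells and 11.6% in regular culture), and CCT7 had a mean share of 8.41% in treated cells against 11.8% in regular culture.

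**Figure D3:**
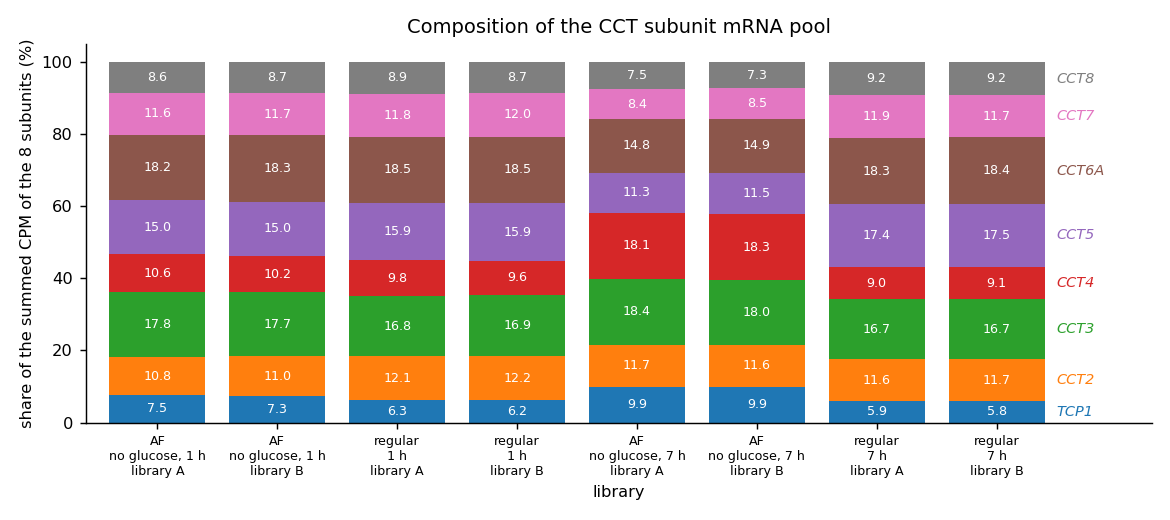
Share of each CCT subunit in the summed CPM of the 8 subunits (percent, bars from 0 to 100) in each library. In treated cells at 7 h CCT4 and TCP1 take a larger part of the bar (18.2% and 9.91% on average) than in regular culture (9.03% and 5.86%), and CCT5 takes 11.4% against 17.5%.

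Levels of different genes were compared per kilobase of their principal GENCODE transcript, without knowledge of which isoform each library held. CCT3 was the most abundant per kilobase in all 4 groups, at 616 ± 11.2 CPM per kb in treated cells at 7 h against 275 ± 0.333 in regular culture (SD, n = 2). CCT4 was second in treated cells at 7 h, at 527 ± 1.05 CPM per kb, against 127 ± 1.02 in regular culture, where only TCP1 was lower. TCP1, the least abundant in regular culture at 7 h (83.2 ± 0.135 CPM per kb), stood at 289 ± 0.286 in treated cells, above CCT8 (268 ± 6.71) and CCT5 (225 ± 1.35). The order in treated cells at 7 h was CCT3, CCT4, CCT2, CCT6A, CCT7, TCP1, CCT8, CCT5, and neighbours in it differed by more than the spread of their libraries. In regular culture at 7 h it was CCT3, CCT6A, CCT7, CCT2, CCT5, CCT8, CCT4, TCP1. At 1 h CCT4 and CCT5 were within the spread of their libraries in treated cells (139 ± 0.693 and 137 ± 2.88 CPM per kb). The highest level per kilobase was 2.78 times the lowest in treated cells at 1 h and 3.15 times in regular culture at 1 h, and at 7 h 2.74 times in treated cells and 3.31 times in regular culture, so the spread of levels among the 8 genes was of similar size in all groups although their order differed.

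At 1 h the differences were small. TCP1 stood at 249 and 250.4 CPM in treated cells, against 196 and 196 CPM in regular culture (log2 fold change 0.35, SE 0.03; limma adjusted p = 8.74e-09). CCT4 stood at 351 and 348 CPM in treated cells, against 307 and 302 CPM in regular culture (0.20), and CCT3 at 592 and 604 CPM in treated cells, against 526 and 536 CPM in regular culture (0.17). With CCT6A (0.08, limma adjusted p = 0.0363) these were the 4 subunits called higher, of 8, beside 17.7% of all genes called higher and 20.7% called lower; 0 subunits were called lower. CCT6A lost its call when any of 3 libraries was left out (0.06 without treated B, 0.07 without regular A and 0.09 without regular B). CCT8 (0.07, limma adjusted p = 0.0801), CCT7 (0.06, limma adjusted p = 0.116), CCT5 (0.01, limma adjusted p = 0.757) and CCT2 (-0.06, limma adjusted p = 0.141) did not pass. CCT2 was at 358 and 375 CPM in treated cells, against 378 and 385 CPM in regular culture. CCT8 passed without treated library A (0.10). The count of called subunits at 1 h, all of them higher, was 6 under quantile normalization and 7 under scaling to total reads. Of 13028 genes, 3085 and 3937 were called higher with these scalings, against 2303 with the deposited one. The share of all calls that were higher was 57.8% and 68.4% with these scalings, beside 46.1% with the deposited one. At 7 h that share was 49.7% with the deposited scaling, 48.2% after quantile normalization and 29.3% after scaling to total reads.

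Smaller departures from the common change were called at 1 h. Against the mean of the 8, TCP1 was at 0.24 and CCT4 at 0.09, both called higher, and CCT5 at -0.10 and CCT2 at -0.17, both called lower. Of all genes, 8.83% were called higher and 38.2% lower against that mean, which again is no background for departures within the complex. Only the calls of TCP1 and CCT2 held without an intensity trend, where CCT4 had a limma adjusted p of 0.107 and CCT5 of 0.0602. CCT4 also lost its call without treated library A (0.06) or without regular library B (0.07), and when only the groups compared were fitted. The 1 h range over the 8 was 0.41 log2 units, against 1.63 at 7 h.

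The treatment effect was larger at 7 h than at 1 h for all 8 subunits, by 1.85 log2 units for CCT4 and 1.44 for TCP1 and by 0.40 for CCT5, beside 36.7% of all genes for which it was called higher. CCT5 did not keep this call under quantile normalization (-0.02) or scaling to total reads (0.02). Set against treated cells at 1 h, treated cells at 7 h had higher levels of all 8 subunits, from 1.92 (CCT4) to 0.65 (CCT7), beside 36.9% of all genes called higher. Regular culture also moved over the same hours: all 8 subunits were called higher at 7 h than at 1 h, beside 30.7% of all genes, with CCT5 (0.31) and CCT8 (0.25) at the top and TCP1 (0.08) and CCT4 (0.07) at the bottom. CCT5 stood at 618 and 621 CPM in regular culture at 7 h, against 497 and 503 CPM in regular culture at 1 h. TCP1 lost that call when regular 1 h library B or either regular 7 h library was left out (0.08, 0.08 and 0.09), and so did CCT4 (0.06, 0.08 and 0.06). The 7 h comparison and this one share the regular 7 h libraries, which enter them with opposite signs, so the order of their values is not independent.

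Of the 8 subunits, 5 have a gene that starts within 1000 bases on the opposite strand (GENCODE v29), against 15.8% of 12013 listed protein-coding genes. Starts here are the outermost 5′ ends over all transcripts of a gene. For CCT7 that end is 73233420, while its principal transcript starts at 73234238, and for CCT3 it is 156367873 against 156338465. The distance given below for CCT7 is from the outermost end, and from the principal start it would be longer. These neighbours were picked for their position after the data were seen. MRPL18, which encodes a protein of the mitochondrial ribosome and starts 63 bases from TCP1, stood at 321 and 311 CPM in treated cells at 7 h, against 51.4 and 49.1 CPM in regular culture (log2 fold change 2.65, SE 0.04; limma adjusted p = 1.43e-20). MRPL18 was thus more changed than TCP1 itself, and it was also higher at 1 h (0.71). The core in the TCP1 window lay in 2 of the 3 windows of MRPL18 as well. By the outermost ends, the start of COMMD1 overlaps that of CCT4 (distance -80 bases). That distance is from the GENCODE end of CCT4 (61888804), while its RefSeq starts (61888671 and 61888656) lie downstream and give no overlap. COMMD1 stood at 19.3 and 18.5 CPM in treated cells at 7 h, against 19.8 and 18.9 CPM in regular culture. Its log2 fold change was -0.03 (limma adjusted p = 0.671), and 0.06 under quantile normalization. The subunit with the largest change therefore had a neighbour without a call, whose libraries overlapped between groups; under scaling to total reads it was at -0.35 and was called lower.

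PSPH, which makes serine from phosphoserine and starts 26 bases from CCT6A, stood at 90.8 and 95.2 CPM in treated cells at 7 h, against 34.8 and 35.9 CPM in regular culture (1.39). ATPSCKMT, a lysine methyltransferase of mitochondrial ATP synthase that starts 24 bases from CCT5, stood at 42.8 ± 2.45 CPM in treated cells, against 22.1 ± 1.57 CPM in regular culture (SD, n = 2; 0.95). PRADC1, 182 bases from CCT7, stood at 17.2 and 16.5 CPM in treated cells, against 20.7 and 17.4 CPM in regular culture (-0.17, limma adjusted p = 0.0456), a call lost without treated A (-0.20), treated B (-0.14) or regular A (-0.047). For 3 pairs the neighbour changed more than the subunit, and for the pairs of CCT4 and CCT7 it did not rise. The library kit does not mark strand, so reads in the stretch that CCT4 and COMMD1 share by their outermost ends cannot be assigned to either.

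**Figure D4:**
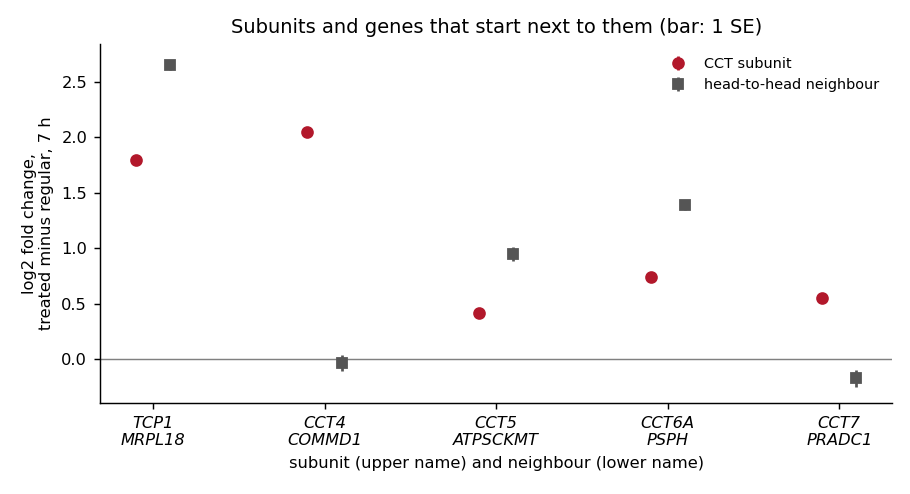
Log2 fold change at 7 h, treated minus regular, of 5 CCT subunits (circles) and of the gene that starts next to each on the other strand (squares), with 1 SE. MRPL18 (2.65) lies above TCP1 (1.79), and COMMD1 (-0.03) lies far below CCT4 (2.05).

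Reads of near-identical or overlapping genes bear on 2 subunits. CCT6A has pseudogene copies; CCT6P1 stood at 20.7 and 17.4 CPM in treated cells at 7 h, against 9.43 and 9.22 CPM in regular culture, and how reads common to these copies and CCT6A were counted was not given. The 3′ end of TCP1 overlaps ACAT2, a thiolase gene on the other strand, which stood at 40.9 and 41.4 CPM in treated cells at 7 h, against 40.6 and 40.6 CPM in regular culture (0.02, limma adjusted p = 0.735).

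Called partners of the chaperonin were found in both directions, as among all genes, of which 40.5% were called higher and 41.1% lower at 7 h. Of prefoldin, 5 of 6 subunits were tested, and 4 were called higher and 1 lower at 7 h (median 0.33): PFDN2 stood at 222 and 201 CPM in treated cells, against 104 and 105 CPM in regular culture (1.02), and PFDN1 at 66.6 and 63.3 CPM in treated cells, against 87.7 and 86.2 CPM in regular culture (-0.42). At 1 h 0 of the 5 were called either way, beside 17.7% of all genes called higher and 20.7% lower. Of 3 phosducin-like co-factors tested, 2 were called lower at 7 h, PDCL (-0.22) and PDCL3 (-0.22), and TXNDC9 was at -0.01 (limma adjusted p = 0.891). Under quantile normalization PDCL3 (-0.14) was the 1 called lower, and under scaling to total reads all 3 were, TXNDC9 at -0.32. The CCT-like chaperonins of the Bardet-Biedl syndrome, BBS10 (-0.76), BBS12 (-0.61) and MKKS (-0.60), were all called lower. MKKS stood at 43.8 and 40.4 CPM in treated cells at 7 h, against 64.9 and 62.4 CPM in regular culture. At 1 h the same list went the other way, with BBS12 (0.50) and MKKS (0.12, limma adjusted p = 0.0495) called higher. Of this list 0 were called lower, beside 17.7% of all genes called higher and 20.7% lower at 1 h. The MKKS call was at the threshold. BBS12 had a low level, 4.91 and 4.98 CPM in treated cells at 1 h, against 3.04 and 4.00 CPM in regular culture. Under scaling to total reads prefoldin had 2 called higher and 2 lower, beside 3144 and 7581 of 13028 genes.

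Both actin genes, the best known clients, fell, and the tubulin genes were called in both directions at shares near those of all genes. ACTB, the major cytoplasmic actin, stood at 3575 and 3369 CPM in treated cells at 7 h, against 8204 and 8126 CPM in regular culture (-1.23). ACTG1, the other cytoplasmic actin, stood at 2870.1 and 2692 CPM in treated cells, against 6547 and 6476 CPM in regular culture (-1.23). Under quantile normalization the falls were larger, with both genes at -2.02. Both were already lower at 1 h (-0.72 for ACTB and -1.48 for ACTG1), when 4 of the 8 subunits were called higher. Of 10 tubulin genes tested, 5 were called higher and 4 lower at 7 h, from TUBB3 (1.00) to TUBB4B (-1.44); TUBB4B stood at 371 and 364 CPM in treated cells, against 985 and 1018 CPM in regular culture. At 1 h 7 of the 10 were called lower and 1 higher, beside 20.7% and 17.7% of all genes. Among 6 beta-propeller clients 2 were called higher and 4 lower at 7 h, also beside 40.5% and 41.1% of all genes, with the kinase-complex subunit gene MLST8 at 0.60 and the anaphase-promoting complex activator gene CDC20 at -1.55.

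Other complexes with several subunits were set beside the 8 changes. All 13 tested subunits of the 20S proteasome core were called higher at 7 h (median 0.54), from PSMA6 (1.05) to PSMB5 (0.23). Under scaling to total reads 11 were higher and 1, PSMB5, was lower (-0.08). Of all genes, 40.5% were called higher and 41.1% lower at 7 h. Of 13028 genes, 3144 were higher and 7581 lower under scaling to total reads, and 5096 and 5471 under quantile normalization. Their range was 0.82 and their SD 0.24 log2 units, against 1.63 and 0.59 for CCT. Of 8 subunits of the Arp2/3 complex, which nucleates branched actin, 2 were called higher and 2 lower (ARPC3 at 0.45 and ARPC5 at -0.92), with a range of 1.38 and an SD of 0.42; 6 were lower under either other scaling. Prefoldin had a range of 1.44 and an SD of 0.55, and the 7 prefoldin-like and R2TP genes a range of 1.47 and an SD of 0.46. Uneven changes were thus not particular to CCT, and among these complexes the proteasome core had the smallest spread. The difference in spread between complexes was not tested, and over all genes the SD was 0.97.

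**Figure D5:**
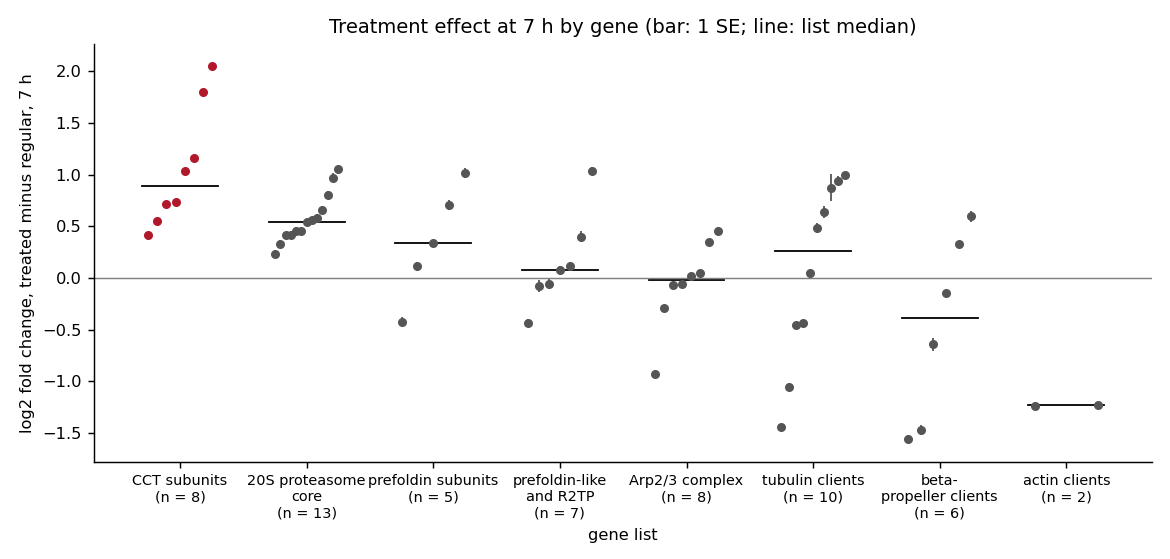
Log2 fold change at 7 h, treated minus regular, of each tested gene of 8 lists, sorted within each list, with 1 SE and the list median as a line. The CCT subunits run from 0.42 to 2.05, the 20S proteasome core from 0.23 to 1.05, and both actin genes lie at -1.23.

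Heat shock chaperones had larger fold changes than most CCT subunits. The 8 cytosolic genes tested were all called higher at 7 h, with a median of 3.10, from HSPA8 (2.06) to DNAJB1 (6.30). They were also all called higher at 1 h, with a median of 1.15. Of all genes, 40.5% were called higher at 7 h and 17.7% at 1 h. The mitochondrial chaperonin, a distant relative of CCT, consists of HSPD1 and its co-chaperonin HSPE1. HSPD1 stood at 8229 and 8190 CPM in treated cells at 7 h, against 753 and 759 CPM in regular culture (3.44), and HSPE1 at 890.2 and 889.7 CPM in treated cells, against 78.7 and 77.6 CPM in regular culture (3.51). HSPD1 (0.91) and HSPE1 (0.88) were also higher at 1 h. HSPA8 and CCT4 were close at 7 h with the deposited scaling (2.06 and 2.05), but under quantile normalization HSPA8 was at 1.04, below CCT4 (1.66) and TCP1 (1.49), and the median of the 8 cytosolic genes was 1.98.

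The genes most like the mean of the 8 subunits over the 4 groups were POPDC3, ZNF229, PIK3C3, RUVBL2 and TMEM117, by the root mean square difference of 4 centred group means among 11054 genes (0.0111 for POPDC3 to 0.0297 for TMEM117). They were picked as the closest of these 11054 genes, so their lying closer to that mean than any subunit is no finding about them. Of the subunits, CCT3 was closest at 0.0436 and CCT4 farthest at 0.396. RUVBL2, an ATPase of the R2TP complex, stood at 238 and 239 CPM in treated cells at 7 h, against 116 and 117 CPM in regular culture (1.03). PIK3C3, the class III phosphatidylinositol 3-kinase, stood at 73.1 and 73.4 CPM in treated cells at 7 h, against 35.8 and 37.0 CPM in regular culture (1.01).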

How the data were processed

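RNA was measured in 8 libraries, grouped by their titles. The labels' protocols name SMART-Seq mRNA HT and Nextera XT for library making, neither of which marks strand. The submitters' processing notes name HISAT2, GRCh38 and edgeR; their versions, and how reads were counted, were not given in the sources used here. Values are in log2 units: the authors deposited log2 CPM with a prior and a scaling between libraries. The prior was 0.0522 CPM, or 2 reads at mean library size. With it removed, whole reads came back for 100% of values (to within 0.1 read), and CPM and read totals in the text come from these. A count of 0 allows up to 3 reads, between 0.0626 and 0.129 CPM.

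A filter of 1 CPM, to be reached in 2 or more libraries, dropped 8 genes, and 13028 were tested. The fit on log2 values used limma 3.58.1 (R 4.3.3), 1 mean for each group, an intensity trend, 4 residual degrees of freedom and Benjamini-Hochberg adjustment over the genes tested. The procedure was tested on simulated data. Column headings carry a group but no replicate number, so A and B are arbitrary names for the libraries of a group; 0 columns were left unassigned. Alternatives were other scalings, no filter, a prior of 0.5 CPM, no trend, voom weights, fewer groups and leaving out a library.

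The members, the gene lists, their tests and the motifs were chosen with earlier results of these data known. Named genes are the 8 subunits, the highest and lowest at 7 h of each list (all members of lists of 2 or 3), and the 5 genes with the pattern most like the mean of the subunits, among genes with a group mean of at least 5 CPM. Genes of 2 other kinds, head-to-head neighbours and overlapping or near-identical genes, were chosen by position after values were seen. List members PFDN6, PDCL2, CCT6B, TUBB, HSPA1A, HSPA1B and PSMB3 were not analysed here. A comparison of the subunits' protein sequences was not made.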

Additional observations from a re-analysis of the deposited data

Results flagged for a closer look

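For each subunit the effect of treatment at 7 h differed from that at 1 h by a test of the difference itself in the limma fit. The differences, 7 h effect minus 1 h effect on the log2 scale, were 1.85 for CCT4, 1.44 for TCP1, 1.09 for CCT2, 0.99 for CCT3, 0.66 for CCT6A, 0.64 for CCT8, 0.49 for CCT7 and 0.40 for CCT5. CCT2 is the subunit whose sign was unlike at the 2 times, at -0.06 without a call at 1 h and 1.03 with a call at 7 h. For CCT5 the test depended on the scaling, with -0.02 under quantile normalization and 0.02 under scaling to total reads. With 2 libraries a group, no search for a library far from the others was made.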

How the results depend on the processing

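No paired analysis was possible because the columns carry no replicate number. Of 156 alternative values of counts and ranges, 151 stayed close to those reported. The limit for close was wide for counts of at most 8. A change from 4 to 6 called subunits at 1 h, under quantile normalization, was within it. Under quantile normalization the 1 h range over the subunits was 0.49 log2 units, both as such and relative to the mean of the 8, and the range in treated cells at 7 h minus 1 h was 1.16. Scaling to total reads gave 7 called subunits at 1 h, and without an intensity trend 2 subunits were called relative to their mean at 1 h. Without an intensity trend the calls of CCT6A at 1 h and of TCP1 and CCT4 in regular culture were also lost. Leaving out a library gave 3 to 5 called subunits at 1 h, 8 at 7 h and 6 to 8 in regular culture. Signs turned for CCT2 at 1 h (0.0094) and, at 7 h, for HSF1 (-0.015), HSF4 (-0.039) and PSMB5 (-0.085) under scaling to total reads, for the CCT5 time difference (-0.018) and TXNDC9 (0.044) and COMMD1 (0.058) at 7 h under quantile normalization, and on leaving out a library, for CCT5 at 1 h (-0.0081 to 0.035) and TXNDC9 at 7 h (-0.052 to 0.036). The cause was not tested. Scaling to total reads also moved the share of higher calls among all genes for the time difference to 24.9%, against 49.8% with the deposited scaling, and for treated cells at 7 h minus 1 h to 20.8%, against 47.5%. Every group had 2 libraries, which limits what small 1 h differences can show.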

Other observations

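Among the tubulin folding cofactors, which take tubulin after the chaperonin, calls at 7 h also went in both directions, as among all genes. Of 5 tested, 3 were called higher and 2 lower in treated cells (median 0.41 on the log2 scale), beside 40.5% and 41.1% of all genes. TBCA stood at 176 and 159 CPM in treated cells, against 113 and 117 CPM in regular culture (0.54), and TBCC at 5.16 and 5.01 CPM in treated cells, against 16.1 and 16.4 CPM in regular culture (-1.66). Under scaling to total reads 2 were called higher and 2 lower, beside 3144 and 7581 of 13028 genes.

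Of the prefoldin-like and R2TP genes, 3 of 7 were called higher and 1 lower at 7 h, beside 40.5% and 41.1% of all genes. The 2 ATPases of that complex parted: RUVBL2 was at 1.03, and RUVBL1 stood at 70.0 and 73.6 CPM in treated cells, against 94.9 and 99.6 CPM in regular culture (-0.44). Under scaling to total reads 1 of the 7 was higher and 5 lower, beside 3144 and 7581 of 13028 genes. The heat shock factor genes changed little at 7 h: HSF1 was at 0.30 and was called higher (but -0.015, without a call, under scaling to total reads), HSF2 was at -0.11 (limma adjusted p = 0.275) and HSF4 at 0.27 (limma adjusted p = 0.117).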
